A study of Homo sapiens with 4 samples.

Results

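The genes described here act in plasminogen activation and pericellular proteolysis: PLAU, PLAUR, PLAT, SERPINE2, SERPINB2, LRP1 and THBS1. They were measured in HT1080, an established human fibrosarcoma line, as total RNA and as ER-RNA, the RNA recovered with an isolated endoplasmic reticulum (ER) fraction. A gene was taken where a probe set of the array names it alone, and where several did, the one whose mean across all 4 arrays was highest. This gave values for 6 of the 7 genes, out of 18417 genes and 33297 probe sets on the array. SERPINB2 is not analysed here on the arrays, because no probe set names it alone in the annotation used. Control cultures stood at 21% oxygen and hypoxic cultures at 1% oxygen, both for 36 h with 5% CO2 and with 0.4% serum, which also preceded the experiment for at least 24 h. For work on subcellular fractions the cells were treated with the translation inhibitor cycloheximide before isolation, so the ER-RNA arrays may differ from the total RNA arrays by this agent as well, and the effects of agent and fraction cannot be told apart. The 4 groups are total RNA control, total RNA hypoxia, ER-RNA control and ER-RNA hypoxia, each on 1 Affymetrix Human Gene ST array carrying RNA pooled from 5 experiments. With 1 array a group, the variation among the 5 experiments is averaged away and no test with a p-value can be made.

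Plasminogen is a circulating proenzyme that becomes plasmin, a broad serine protease that degrades fibrin and matrix proteins. Its activators are urokinase (PLAU) and tissue-type activator (PLAT), and the receptor PLAUR holds urokinase at the cell surface. Serpins such as SERPINE2, also called protease nexin 1, and SERPINB2 trap the activators in inactive complexes, and the endocytic receptor LRP1 takes such complexes into the cell. THBS1, the matricellular protein thrombospondin 1, binds proteases and matrix and is itself cleared through LRP1. HT1080 cells have long been used as a source of urokinase and as a model of matrix invasion.

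The promoters are shown first because the hypoxia-inducible factors (HIF) bind a short core sequence in DNA and AP-1 factors, known regulators of urokinase and its receptor, bind another. RefSeq (GRCh38.p14) gave 8 promoters for 6 of the genes, PLAU, PLAUR, SERPINE2, SERPINB2, LRP1 and THBS1, each of 300 bases from 250 before to 50 after the transcription start. The core ACGTG or GCGTG, searched on both strands, was present in 5 of the 8, against 48.4% of the 35116 human promoters of that length in the same table. The AP-1 word TGACTCA or TGAGTCA was present in 1 of the 8, against 4.95% of all promoters. The windows with a match are shown in the direction of the gene, with the matched letters in capitals; CACGC and CACGT are the cores read on the other strand.
PLAU, second listed start, chr10:73911009-73911033, plus strand, match from base -113: gttgcggaagCACGCggggtccggg
PLAUR, chr19:43670241-43670265, minus strand, match from base -86: gggaggcgccCACGCatctggggct
PLAUR, chr19:43670145-43670169, minus strand, match from base 10: aggagagaagACGTGcagggacccc
PLAUR, AP-1 word, chr19:43670339-43670365, minus strand, match from base -186: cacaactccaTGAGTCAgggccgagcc
SERPINE2, first listed start, chr2:224031550-224031574, minus strand, match from base -86: atgctaggtcACGTGgtcacatgcc
SERPINE2, second listed start, chr2:224038758-224038782, minus strand, match from base -132: accggggccgGCGTGgctcctgccc
THBS1, chr15:39580842-39580866, plus strand, match from base -227: cgccaaggctGCGTGggcgggcacc
The first SERPINE2 window holds the palindrome CACGTG, so the core is also present there on the other strand and overlaps the one shown. The other PLAU promoter and those of LRP1 and SERPINB2 held neither word, which says only that these letters are not in the windows searched. A match is a description of the sequence and not evidence of binding.

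The values are RMA-normalized and on the log2 scale. Array medians were 7.41 and 7.49 for total RNA in control and hypoxia, and 6.25 and 6.34 for ER-RNA, so hypoxia was compared with control within each fraction. A probe set was tested, or expressed, if it exceeded the 50% quantile on at least 1 array of the pair. Genes are said to have risen or fallen if they passed both thresholds named in the methods, a fold change of 1.4 and a z-score of 3 in size. The z-score is the log2 difference over an SD fitted by loess as a function of the mean. That SD was taken between the control and hypoxia arrays of a pair. It therefore includes the response to hypoxia and is not an error between replicates. It is also the SD of single values in a pair and not of their difference. A z-score of 3 is thus not 3 SDs of the log2 difference. EGLN3, a prolyl hydroxylase gene induced by HIF and used as a check of the hypoxia label, rose 3.0-fold and 2.86-fold in total RNA and ER-RNA. Of 8 mesenchymal markers, 7 were expressed on the total RNA arrays and 8 on those of ER-RNA, and VIM, the vimentin gene, rose 1.51-fold and 1.49-fold. Of 5 epithelial markers EPCAM and CDH1 lay below the filter in both fractions while the keratin genes KRT8, KRT18 and KRT19 were expressed. The leukocyte markers PTPRC and CD3E and the endothelial markers CDH5 and VWF lay below the filter in both fractions, while CD14 (leukocyte) and PECAM1 (endothelial) lay below it in total RNA and passed it in ER-RNA, where neither was called.

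In total RNA 2 of the 6 genes rose in hypoxia, SERPINE2 and LRP1, and 1 fell, PLAU, while PLAUR, PLAT and THBS1 were not called. Over all 17537 probe sets tested in total RNA, 9.66% were called, 3.27% upwards and 6.39% downwards. In ER-RNA 0 of the 6 were called, where 8.87% of 17581 probe sets were called, 1.55% upwards and 7.31% downwards. The activator gene that fell, the inhibitor gene and the clearance receptor gene that rose thus passed the rule in total RNA and not in ER-RNA, which does not show that the fractions differed. The median log2 fold change of the 6 genes was -0.08 in total RNA, beside -0.01 over all probe sets tested, and 0.17 in ER-RNA beside 0.01. All 6 genes lay above the array median on all 4 arrays.

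**Figure D1:**
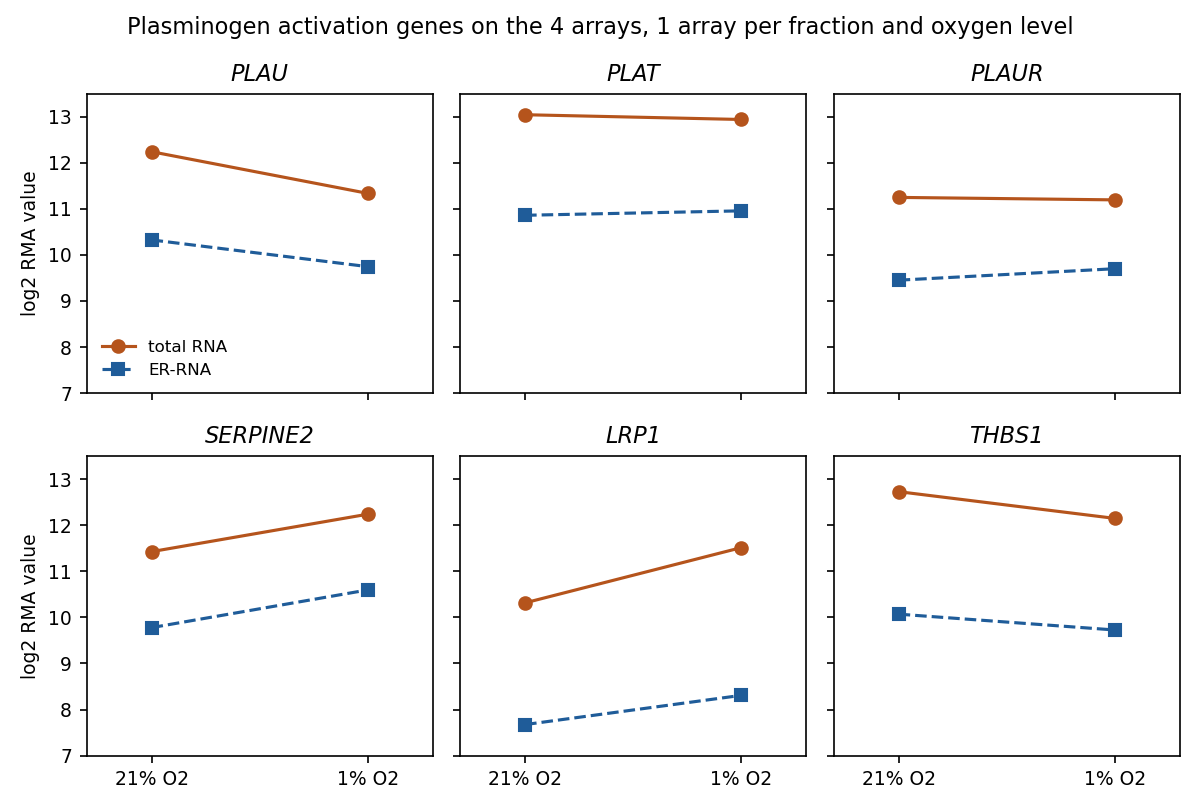
Each panel plots the log2 RMA value of 1 gene against oxygen (21% control, 1% hypoxia), with 1 point per array and lines joining the arrays of total RNA and of ER-RNA. SERPINE2 and LRP1 are higher in hypoxia in both fractions, PLAU and THBS1 are lower in both, and PLAUR and PLAT differ by 0.25 or less on the log2 scale.

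Among the activators, PLAU encodes urokinase, the activator that works at the cell surface. Its log2 value was 12.24 in total RNA control and 11.33 in total RNA hypoxia, against 10.32 and 9.75 in ER-RNA. Both hypoxia arrays lay below their control arrays. In total RNA PLAU fell by 0.90 on the log2 scale, to 0.534 of its control level, with a fitted SD of 0.24 and a z-score of -3.78. In ER-RNA its log2 fold change was -0.58, or 0.669 of control, and its z-score of -1.81 did not pass. The ER-RNA change was past the fold threshold, and its fitted SD was 0.32.

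PLAT encodes tissue-type plasminogen activator, known best for clot lysis. Its log2 values were 13.04 and 12.94 in total RNA, control first, and 10.86 and 10.96 in ER-RNA. Each pair of arrays lay close together. The log2 fold change was -0.10 in total RNA (z-score -0.66) and 0.10 in ER-RNA (z-score 0.32), so neither came near the threshold. The log2 fold change of PLAU minus that of PLAT came to -0.80 for total RNA and -0.68 for ER-RNA, a difference that was not tested.

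PLAUR encodes the receptor that binds urokinase on the membrane through a lipid anchor. It gave 11.25 and 11.19 in total RNA, control first, and 9.45 and 9.70 in ER-RNA. The hypoxia array was the lower of the pair in total RNA and the higher in ER-RNA. Its log2 fold change was -0.05 in total RNA (z-score -0.20), a sign that turned to 0.04 under quantile normalization and 0.06 under loess within the pair, and 0.25 in ER-RNA (z-score 0.77). The log2 fold change of PLAU, the ligand gene, minus that of PLAUR was -0.85 for total RNA and -0.83 for ER-RNA, likewise not tested.

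SERPINE2 encodes a serpin that inhibits urokinase, tissue-type activator, plasmin and thrombin at the cell surface. Its log2 values were 11.42 and 12.24 in total RNA, control first, and 9.78 and 10.59 in ER-RNA. Hypoxia was higher in both fractions and by nearly the same amount. In total RNA SERPINE2 rose 1.76-fold, by 0.81 on the log2 scale with a fitted SD of 0.24 and a z-score of 3.43. In ER-RNA the fold was also 1.76 (log2 fold change 0.82), but with a fitted SD of 0.32 the z-score of 2.57 did not pass. SERPINE2 was called in ER-RNA under quantile normalization (log2 fold change 0.87) and under loess within the pair (1.01), and it lost its call in total RNA when each array was centred on its median (0.74).

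LRP1 encodes a large endocytic receptor of the lipoprotein receptor family, which internalizes complexes of protease and inhibitor together with PLAUR, and also thrombospondins. Its log2 values were 10.31 and 11.51 in total RNA, control first, and 7.67 and 8.31 in ER-RNA. Hypoxia was higher in both fractions, with the wider gap in total RNA. LRP1 rose 2.29-fold in total RNA, by 1.2 on the log2 scale with a fitted SD of 0.27 and a z-score of 4.41, the largest change among the 6 genes. In ER-RNA it was at 1.55-fold, a log2 fold change of 0.63 with a z-score of 2.18, and was not called. That outcome holds for the SD fit used here, which may depart from the authors' model and call other genes. LRP1 stands in a list of HIF target genes that the authors limited to those changed on these same arrays, so that list is not independent evidence of its direction.

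THBS1 encodes thrombospondin 1, an adhesive matrix glycoprotein that also activates latent TGF-beta. Its log2 values were 12.73 and 12.15 in total RNA, control first, and 10.07 and 9.73 in ER-RNA. Both hypoxia arrays were the lower of their pair. The log2 fold change was -0.58 in total RNA, or 0.669 of control, and its z-score of -2.90 stopped just short of the threshold. In ER-RNA it was -0.34, or 0.788 of control, with a z-score of -1.07. When each array was centred on its median, THBS1 was called in total RNA with a log2 fold change of -0.66. Its log2 fold change stood 1.78 below that of LRP1 in total RNA and 0.98 below it in ER-RNA.

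**Figure D2:**
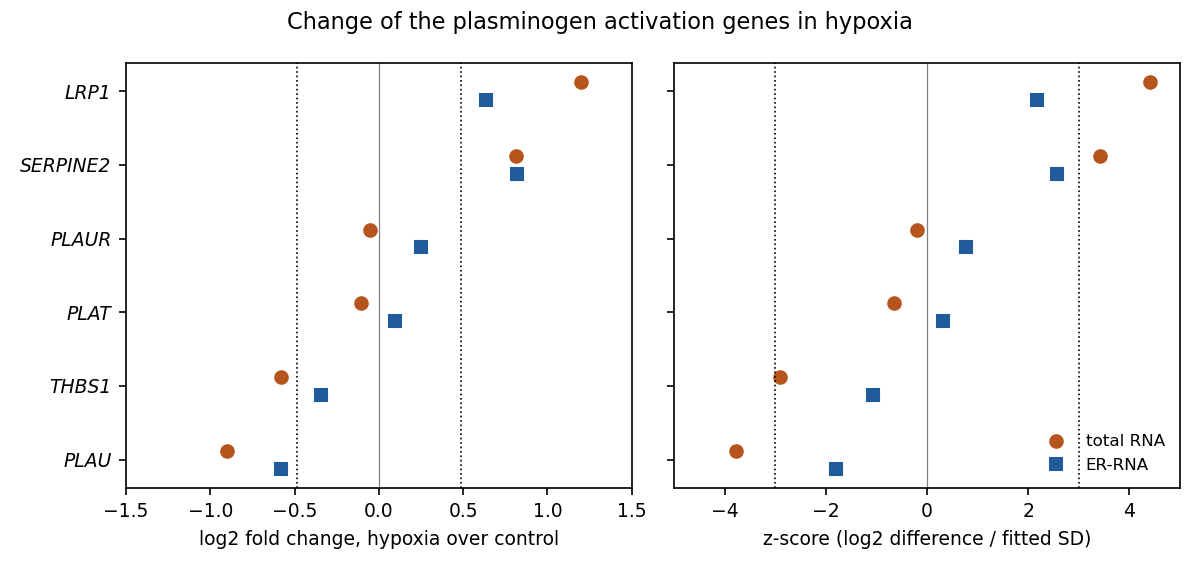
The left panel plots each gene's log2 fold change in hypoxia for both fractions and the right panel its z-score, with dotted lines at a fold change of 1.4 and a z-score of 3 in both directions. In total RNA SERPINE2, LRP1 and PLAU pass both lines and THBS1, with a z-score of -2.90, passes the line for fold only, while in ER-RNA SERPINE2, LRP1 and PLAU pass the line for fold but not for the z-score.

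By fold alone 2 genes were higher and 2 lower in total RNA, where 25.7% of all probe sets tested passed that threshold, 9.25% upwards and 16.5% downwards. In ER-RNA 2 were higher and 1 lower, where 27.9% passed, 8.69% upwards and 19.2% downwards. The 3 calls in total RNA all rested on the SD model, since none of the 6 genes was called when the SD came from the scaled median absolute deviation of the log2 ratios. That SD is one of the log2 difference itself and the main one is not, so the same z-score threshold was stricter there. Over all probe sets in total RNA it left 203 called up and 280 down, beside 574 and 1120 in the main setting. With RNA from bulk cultures, a change in the number of cells holding a transcript and a change in the amount per cell cannot be told apart.

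ER-RNA was then set beside total RNA for each gene. Both activators, the receptor, the inhibitor and THBS1 encode secreted or membrane-anchored proteins, and LRP1 spans the membrane. Proteins of these kinds are in general translated at the ER, but the site of translation was not measured here. The fractions do not share a scale, and a difference between them is read only beside the same difference over the 10851 genes expressed in both. ER-RNA minus total RNA in control had a median of -1.02 over those genes and of -2.05 over the 6, and in hypoxia -1.03 and -1.81. Relative to all genes in control the median of the 6 was thus -1.03, and it was -1.61 under quantile normalization. For 6 of the 6 genes the difference lay below the all-gene median at both oxygen levels. In control LRP1 and THBS1, at -2.64 and -2.66, lay below the 5% quantile of all genes (-2.38), and in hypoxia LRP1 at -3.20 and THBS1 at -2.42 lay below it again (-2.33). Such low values were not particular to these genes. Of the lists described below, ITGAV (-2.78), ITGA5 (-2.89), TGFB1 (-3.05) and THBS2 (-3.51) also lay under that quantile in control. Others in those lists, such as CAV1 (-0.33) and ANXA2 (0.41), lay above the all-gene median. SERPINE2, at -1.65 in control and -1.64 in hypoxia, held its distance of 0.63 and 0.62 below the all-gene median. PLAU went from -1.91 to -1.59, PLAUR from -1.80 to -1.49 and PLAT from -2.18 to -1.98. How much of these differences comes from the scale or the fraction isolation was not tested.

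**Figure D3:**
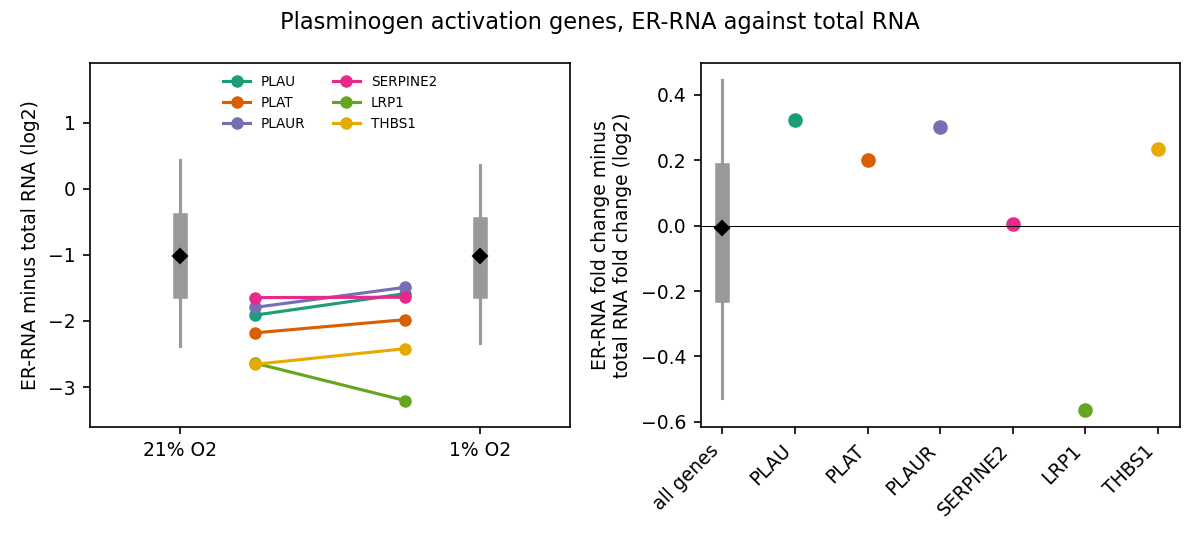
The left panel plots ER-RNA minus total RNA (log2) for each gene in control and in hypoxia beside the median (diamond), the quartiles (thick bar) and the range from 5% to 95% (line) of the 10851 genes expressed in both fractions, and the right panel plots the log2 fold change in ER-RNA minus that in total RNA in the same way. All 6 genes lie below the all-gene median in the left panel, and in the right panel LRP1 at -0.56 lies beyond the 5% quantile of -0.53.

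The change in ER-RNA minus the change in total RNA had a median of -0.01 over all genes, with 5% of genes below -0.53 and 5% above 0.45. LRP1 was at -0.56, below the lower of these limits, its change being larger in total RNA. PLAU at 0.32, PLAUR at 0.30, THBS1 at 0.24 and PLAT at 0.20 lay above the upper quartile of 0.17 but inside the upper limit. SERPINE2 differed by 0.01 between the fractions. By size, the change was larger in total RNA for 4 of the 6 genes, the exceptions being PLAUR and SERPINE2. The median of the 6 genes was 0.22, and 0.33 under quantile normalization. With 1 array per group none of these differences was tested.

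Of the pathway around these genes, 11 lists with 110 genes were followed, of which 107 were measured. In total RNA 71 were expressed, of which 3 rose (4.23%) and 7 fell (9.86%), beside 3.27% and 6.39% of all probe sets tested. In ER-RNA 74 were expressed, of which 2 rose (2.70%) and 1 fell (1.35%), beside 1.55% and 7.31%. The shares describe the lists and no test was made.

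The substrate and its docking sites did not pass the rule. PLG, which encodes plasminogen and is made mainly in liver, lay below the filter in both fractions. Of 3 expressed plasminogen receptors in total RNA, ENO1 had the highest log2 fold change (0.34), followed by S100A10 (0.31) and ANXA2 (0.05), the last pair forming a surface complex that binds plasminogen and its tissue-type activator. In ER-RNA S100A10 was highest (0.30) and PLGRKT, a transmembrane plasminogen receptor, lowest (-0.27). None of 6 other inhibitors of plasmin and its activators was expressed in total RNA, and in ER-RNA only SERPINF2, the antiplasmin gene, passed the filter (log2 fold change 0.32, not called).

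Of 4 expressed clade B serpins beside SERPINB2, SERPINB5, which encodes maspin and is not known to inhibit proteases in the usual serpin manner, fell in both fractions. Its log2 values were 9.0 and 7.63 in total RNA, control first, and 8.13 and 6.62 in ER-RNA, which gave 0.386 of control (z-score -5.80) and 0.351 of control (z-score -6.00). SERPINB7 was the highest of the list without a call, with log2 fold changes of 0.32 (total RNA) and 0.40 (ER-RNA).

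The list of the lipoprotein receptor family, to which LRP1 belongs, also holds the chaperone gene LRPAP1; 8 genes of the list were expressed in each fraction, and their median log2 fold change came to -0.30 for total RNA and -0.14 for ER-RNA. VLDLR, another receptor that clears urokinase with its inhibitors, rose in both fractions, 3.51-fold in total RNA (8.39 to 10.21) and 2.73-fold in ER-RNA (6.59 to 8.04). LRP5, a Wnt co-receptor, fell to 0.514 of control (total RNA), with 0.908 in ER-RNA. In total RNA the other 6 were not called, with log2 fold changes from -0.62 (LRP6) to -0.08 (LRP11), and in ER-RNA the lowest was again LRP6 (-0.44).

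Of 13 expressed partners of the urokinase receptor, ITGB3, the integrin beta 3 subunit of a vitronectin receptor, rose 3.32-fold in total RNA (8.94 to 10.67) and 1.81-fold in ER-RNA (6.71 to 7.56). FPR1, a formyl peptide receptor, fell to 0.499 of control (total RNA, z-score -3.08), with 0.653 in ER-RNA. ITGA5, the alpha subunit of the fibronectin receptor, was highest in ER-RNA at 1.89-fold and at 1.42-fold in total RNA, not called in either. The list had a median log2 fold change of 0.16 (total RNA) and 0.29 (ER-RNA).

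**Figure D4:**
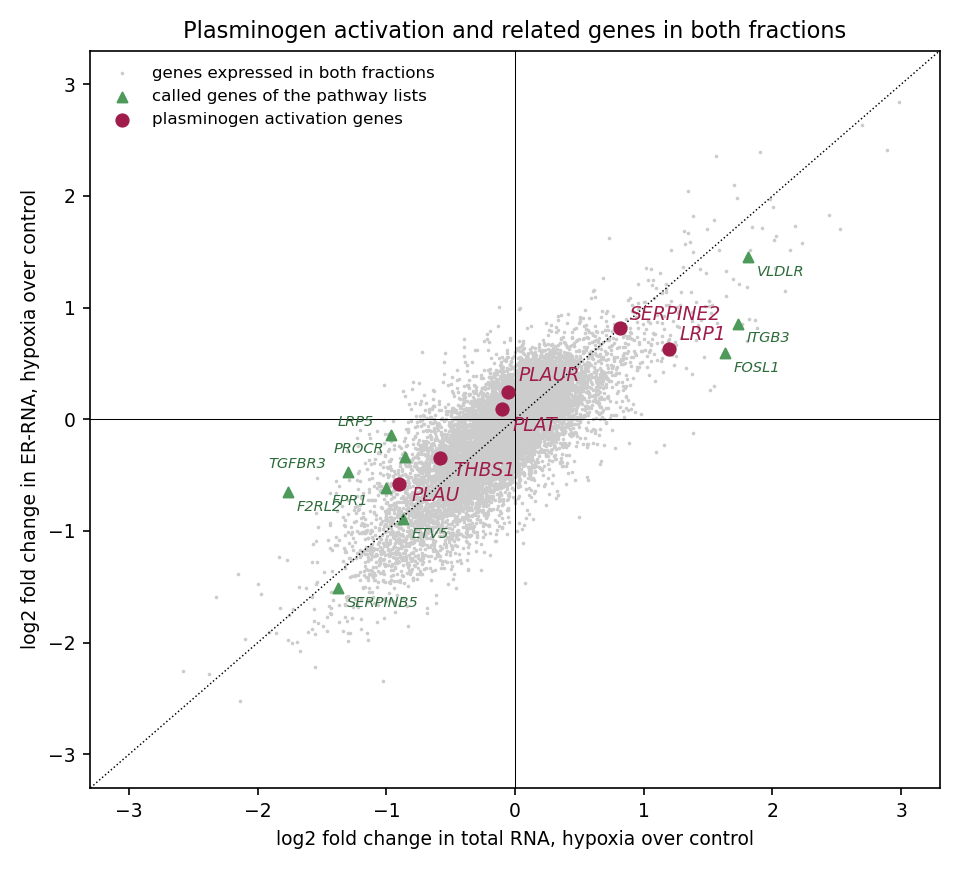
Log2 fold change (hypoxia over control) in total RNA on the x axis and in ER-RNA on the y axis, with grey points for genes expressed in both fractions, circles for the 6 plasminogen activation genes, triangles for genes of the pathway lists called in either fraction, and a dotted line of equal change. LRP1, ITGB3 and FOSL1 lie below the line at 1.2, 1.73 and 1.63 in total RNA, SERPINE2 lies on it, and PLAU lies above it at -0.90.

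Coagulation at the cell surface held 8 expressed genes in total RNA, of which 2 fell. PROCR, the endothelial protein C receptor, fell to 0.552 of control and was at 0.790 in ER-RNA, and F2RL2, a thrombin-cleaved receptor also called PAR3, fell to 0.295 and was at 0.636. GAS6, a ligand of TAM receptor kinases, was highest in total RNA (log2 fold change 0.44) and F3, the tissue factor gene, in ER-RNA (0.34), both not called. Of 10 expressed genes of the TGF-beta system, whose latent ligands THBS1 can activate, TGFBR3, the co-receptor betaglycan, fell to 0.406 of control (total RNA), with 0.720 in ER-RNA. LTBP3, which tethers latent TGF-beta, was highest with log2 fold changes of 0.63 and 0.33, not called.

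No gene was called among the other thrombospondins and thrombospondin receptors, where THBS4 was highest in total RNA (log2 fold change 0.52) and THBS2 lowest (0.06), with COMP (0.39) and CD47 (-0.13) as the limits in ER-RNA. No gene was called among the other pericellular proteases and their inhibitors either: BMP1, a procollagen proteinase, was highest in total RNA (0.26) and HTRA1 lowest (-0.43), with SPINT1 (0.33) and PRSS23 (-0.45) in ER-RNA. Of the HGF family MET, the HGF receptor, was the only expressed gene, with log2 fold changes of 0.38 and 0.60, not called. Among 13 AP-1 and ETS factors, families known to act on the urokinase promoter, FOSL1 rose 3.10-fold (total RNA) and had a fold of 1.51 in ER-RNA. ETV5 fell to 0.548 of control (total RNA) and had 0.538 (z-score -2.93) in ER-RNA. JUND was highest in ER-RNA with a log2 fold change of 0.80, not called.

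Several calls in these lists depended on the filter, the scaling, the SD model or the fold threshold. FPR1 and F2RL2, at 6.78 and 7.14 in total RNA hypoxia, lay under that array's median and were not called when both arrays had to pass it, and ETV5 was not called under quantile normalization or loess within the pair. With the filter at the 75% quantile, SERPINB5, LRP5, FPR1, PROCR and F2RL2 in total RNA and SERPINB5, VLDLR and ITGB3 in ER-RNA were no longer called. With an SD from the scaled median absolute deviation LRP5, FPR1, ETV5 and 1 of the 2 coagulation genes in total RNA and ITGB3 in ER-RNA were not called, and at a fold change over 2 LRP5, PROCR, ETV5 and, in ER-RNA, ITGB3 were not.

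The patterns of the 3 called genes over the 4 arrays were compared with those of all 10851 genes expressed in both fractions, as the Euclidean distance between log2 values after each gene's mean was subtracted. Nearest to PLAU were APEX2, a DNA repair endonuclease gene (distance 0.0801), KDM4A, a histone demethylase gene (0.0841), and URB2, a ribosome biogenesis gene (0.0868), beside a median distance of 1.18 to all genes. All 3 fell in total RNA, to between 0.518 and 0.524 of control, and were not called in ER-RNA. Nearest to SERPINE2 were STAC (0.101), an adaptor protein gene, KLF11 (0.104), a zinc finger factor gene, and SQLE (0.112), the squalene epoxidase gene, beside a median of 1.23. KLF11 and SQLE rose in total RNA and STAC in ER-RNA. Nearest to LRP1 were CD109 (0.229), a cell-surface glycoprotein gene, KAT6B (0.280), a histone acetyltransferase gene, and GPRC5A (0.294), an orphan receptor gene, beside a median of 2.19, and all 3 rose in total RNA and were not called in ER-RNA. Among the 6 genes PLAUR and PLAT lay closest (0.451) and PLAU and LRP1 farthest apart (2.08). These distances cover 4 arrays and describe likeness only. The nearest genes were picked by these same values, so their small distances, like fold changes and like calls follow from the selection.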

How the data were processed

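Pooled total RNA and ER-RNA from HT1080 cells under control or hypoxic conditions were hybridised to 4 arrays. The authors deposited log2 values after RMA normalization, for which the submitters' processing notes give Partek 6.4. The genome build, and whether the 4 arrays were normalized in 1 run, are not given in the sources used here. Precision is limited by the number of arrays.

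Of 33297 probe sets, 19460 name 1 gene in the platform annotation, and 19429 of these matched RefSeq by gene identifier. Unnamed probe sets entered the counts over all probe sets. The methods give the thresholds, a 50% expression quantile, a fold change over 1.4 and a z-score over 3. Here probe sets above that quantile on at least 1 array of a pair were kept. The SD came from a loess fit (span 0.75, degree 2) of the SD over the pair on its mean. The methods fit treatment and control apart and refer to an earlier publication for the model, so the filter and the fit used here are a reading that may depart from them and may call other genes.

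R 4.3.3, limma 3.58.1, Python 3.11.15 and matplotlib 3.10.9 were used. The genes, the lists around them and the tests were chosen with earlier results of these data known. Named genes were the members, the called genes and the expressed genes with the highest and lowest change of each list, EGLN3, and the 3 genes nearest in pattern to each called member. VIM, EPCAM, other marker genes and further genes given without a call were named from the same lists after their values were seen. The 11 alternatives covered normalization, filter, SD model, fold threshold, probe set per gene and probe sets counted.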

Additional observations from a re-analysis of the deposited data

Results flagged for a closer look

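PLAUR and PLAT had log2 fold changes of opposite sign in the fractions, which is why they are listed here. For PLAUR the values were -0.05 (total RNA) and 0.25 (ER-RNA), a difference of 0.30, and under quantile normalization and loess within the pair the total RNA value turned to 0.04 and 0.06, so that the signs no longer differed. For PLAT it was -0.10 and 0.10, a difference of 0.20. Neither gene was called in either fraction, and with 1 array per group the difference was not tested.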

How the results depend on the processing

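No paired analysis was possible because each group has 1 array. Of 132 values of the 6 genes over the 11 alternatives, 117 kept their direction and their side of the threshold, 6 lost and 7 gained a call, and 2 changed sign: PLAUR in total RNA, at 0.0390 under quantile normalization and 0.0563 under loess within the pair. A sign could change only under quantile normalization, median centring and loess, since the other alternatives left these log2 fold changes as they were. Each of the 6 genes has 1 probe set, so the mean over a gene's probe sets could change nothing. The 3 calls in total RNA became 0 with an SD from the scaled median absolute deviation and 1, LRP1, at a fold change over 2. The 0 calls in ER-RNA became 1, SERPINE2, under quantile normalization, 1, again SERPINE2, under loess within the pair, and 3 by fold alone. PLAU was called in total RNA under 9 of the alternatives, SERPINE2 under 8, LRP1 under 10 and THBS1 under 2. These counts include alternatives that could not remove a call, such as fold alone and the mean over a gene's probe sets. The median difference between the fractions' fold changes moved from 0.22 to 0.33 under quantile normalization, and the median of ER-RNA over total RNA relative to all genes from -1.03 to -1.61; the cause was not tested. Median changes over all probe sets stayed under 0.1 in every scaling. The counts over all probe sets, 574 up and 1120 down in total RNA and 273 up and 1286 down in ER-RNA, moved most without the filter (1718 and 1789, 1115 and 2077), with the filter at the 75% quantile (246 and 535, 133 and 692), with the scaled deviation (203 and 280, 79 and 332) and by fold alone (1623 and 2887, 1528 and 3381). At a fold change over 2 they were 300 and 504 in total RNA, with 164 up in ER-RNA, and among probe sets naming 1 gene 322 (total RNA) and 145 (ER-RNA) rose. Of 484 counts of called genes in the pathway lists over the alternatives, 439 stayed and 45 moved. Without replicates no value here has an error between experiments.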
